A study of Homo sapiens with 11 samples.

Results

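The genes described here are 10 regulators of entry into mitosis, grouped around CDC25B, in the human breast cancer line MDA-MB-231. They are the phosphatases CDC25A, CDC25B and CDC25C, the kinases WEE1 and PKMYT1, the cyclin-dependent kinase CDK1 with its partners CCNB1 and CCNB2, and the mitotic kinases PLK1 and AURKA. They are 10 of the 23167 genes in the count tables, and all 10 passed the filter on low counts. CDC25B was chosen by its measured change between KD and WT in these same libraries, so its difference between the groups is described without a test, while the other 9 genes were chosen by role, with earlier results of these data known.

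MDA-MB-231 is an established triple-negative line. RNA-seq was made from WT cells, which received the INTERFERin transfection reagent without an siRNA, and from mH2A1.1 KD cells, which received an siRNA against mH2A1.1, a splice form of the histone variant mH2A1, at 11 nM, both at day 3 and with 2 libraries a group. Both arms were therefore exposed to the reagent, WT cells had no control siRNA, and which siRNA served for RNA-seq was not given in the sources used here. ChIP-seq was made from untreated WT cells with 1 library for mH2A1.1 (a custom antibody) and 1 for total mH2A1 (antibody Ab37264).

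CDK1 bound to cyclin B drives a cell from G2 into mitosis. WEE1 in the nucleus and PKMYT1 at internal membranes hold CDK1 inactive by adding phosphates, and the CDC25 phosphatases remove them. AURKA activates PLK1, and PLK1 in turn promotes the activity of CDC25 proteins and the loss of WEE1, so that the switch reinforces itself. Transcripts of many of these genes climb in late S and G2 phase through promoter elements that bind NF-Y (the CCAAT box) and the DREAM and MMB complexes (the cell cycle genes homology region, CHR).

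Sequencing depth ranged from 2309549 counts (KD replicate 2) to 9794674 (WT replicate 1). The paper lists KD replicate 2 with the lowest share of uniquely mapped reads of the 4 RNA-seq libraries. KD replicate 2 stood apart, since it held 30 counts on chromosome 21 and 0 on chromosomes 22 and X, so the fit used the 10943 genes on chromosomes 1 to 20 that passed the filter, and log2 fold changes without this library are given where leaving it out moved them by over 1.5 times or changed a call. Counts of MACROH2A1, which encodes mH2A1.1 and the mH2A1.2 splice form together and so does not measure the targeted form alone, were 385 and 394 CPM (counts scaled to library size) in WT and 274 and 301 CPM in KD (log2 fold change -0.44, SE 0.173, edgeR adjusted p 0.204). The labelled line was checked against its markers: VIM, CD44, EGFR and KRT18 were detected in every library, ESR1 and PGR had 0 counts in all 4, CDH1 had 2 to 22 and EPCAM 45 to 189. Of markers of other cell types, PTPRC (leukocytes) had no matching identifier in the count tables. COL1A1 (fibroblasts) had 66 to 97 counts, PECAM1 (endothelium) 9 to 29 and ALB (hepatocytes) 1 count in 1 library. The summed level of the 2 tested markers of this kind was 12.7 and 12.1 CPM in WT and 23.8 and 37.4 CPM in KD, and its part in the results was not tested. No source states that the 2 libraries of a group came from separate cultures, so p-values measure the spread between these libraries, which may be technical.

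The question put to the RNA-seq was whether depletion of mH2A1.1 changed transcript levels of the G2/M switch. CDC25B, which was chosen for this change, had the largest level in KD relative to WT, so its place is only a description. CDK1 and WEE1 had the lowest, and the other 7 lay between. On the edgeR test, 0 of the 9 members other than CDC25B were called at an adjusted p under 0.1 and a fold over 1.5, and 0.0% of all 10943 genes tested were called at those thresholds. At an unadjusted p under 0.05 with the same fold, 2 of the 9 were lower in KD (CDK1 and WEE1) and 0 were higher, against 9.39% and 9.49% of all genes tested. DESeq2 on the same chromosomes called the same 2 members lower. Of the 7739 genes with a DESeq2 adjusted p, 11.3% were called in either direction, 5.78% lower and 5.57% higher. The same 2 members were called by edgeR without the filter on low counts, where 14.3% of 15019 genes were called. DESeq2 on all chromosomes also called these 2, with 10.2% called of its 9262 genes with an adjusted p. Without KD replicate 1, edgeR called 3 of the 9 (CDK1, WEE1 and PLK1) among 41.8% of all genes, and without KD replicate 2 it called CDK1 alone among 8.06%. Without overlap between the CPM of the groups, 6 of the 9 were lower in KD (CDC25C, WEE1, CDK1, CCNB1, CCNB2 and AURKA) and 0 were higher, where 64.9% of all genes tested showed no overlap, 32.4% lower and 32.5% higher.

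**Figure D1:**
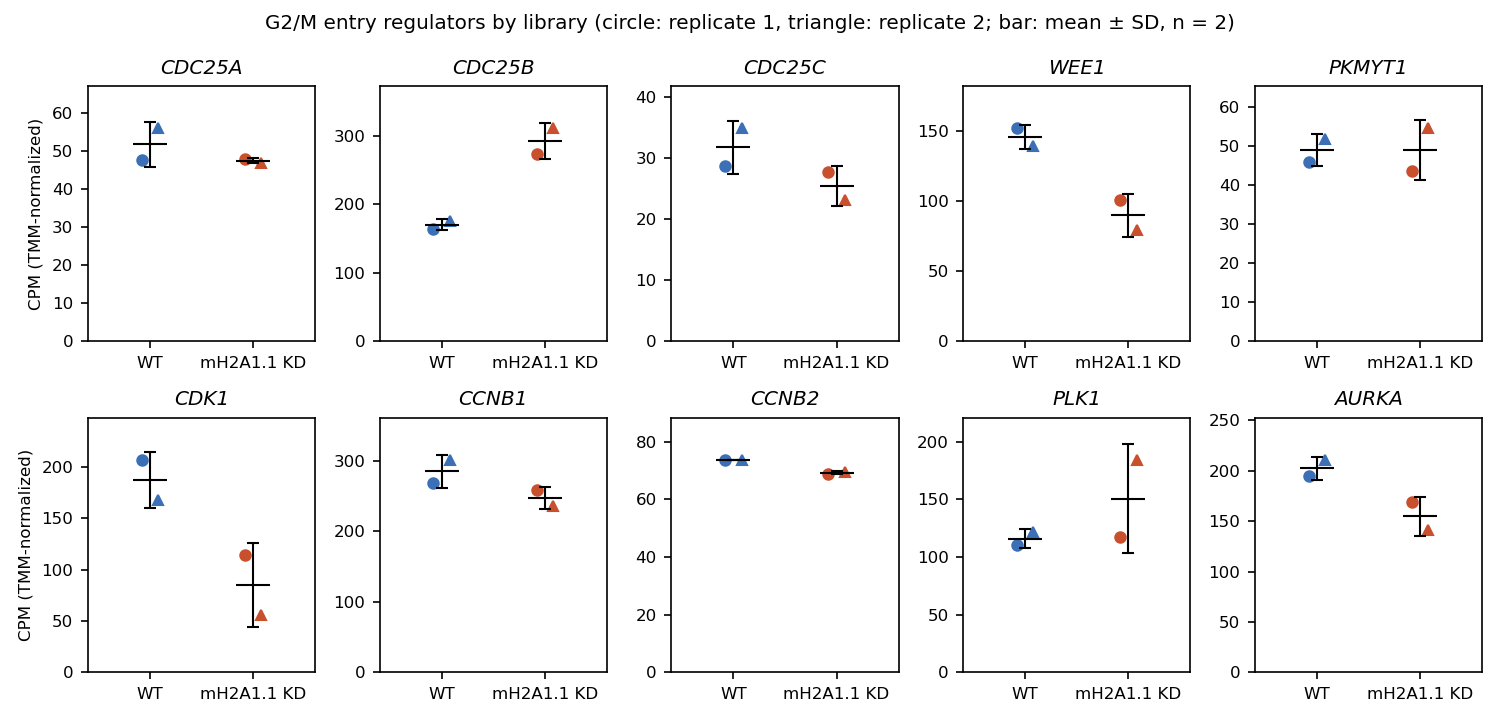
CPM of the 10 members in each of the 4 RNA-seq libraries, with a circle for replicate 1, a triangle for replicate 2 and the mean ± SD of each group (n = 2) as bars. CDC25B lies between 164 and 176 CPM in WT and between 273 and 310 in KD, and the lowest point of CDK1, at 56.3 CPM, is KD replicate 2.

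The phosphatases are the part of the switch that releases CDK1. CDC25B (ENSG00000101224, chromosome 20, 3786772 to 3806121, plus strand, GRCh38 with GENCODE release 44), the form thought to start CDK1 activation at the centrosome, had 164 and 176 CPM in WT replicates 1 and 2 and 273 and 310 CPM in KD replicates 1 and 2. Both KD libraries thus lay above both WT libraries, at 1.61 and 1.83 times the WT mean. The group means were 170 ± 8.08 and 292 ± 26.4 CPM (SD, n = 2), a fitted log2 fold change of 0.78 with an SE of 0.179. Left out in turn, the libraries gave values from 0.69 (without KD replicate 2) to 0.86 (without KD replicate 1).

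CDC25A (ENSG00000164045, chromosome 3, 48157146 to 48188417, minus strand) acts at both the G1/S and the G2/M step. It had 47.5 and 55.8 CPM in WT and 47.9 and 46.9 CPM in KD, so the groups overlapped (log2 fold change -0.12, SE 0.191, edgeR adjusted p 0.695). CDC25C (ENSG00000158402, chromosome 5, 138285269 to 138338355, minus strand), which acts on CDK1 at mitosis in a loop with PLK1, had 28.7 and 34.9 CPM in WT and 27.8 and 23.2 CPM in KD. Both KD values were below both WT values, the nearest pair by less than 1 CPM, and the difference did not pass (log2 fold change -0.30, SE 0.220, edgeR adjusted p 0.406, and -0.18 without KD replicate 2). Part of CDC25C lies opposite FAM53C, which had 185 to 762 counts, and the strand setting of the counting was not stated beyond its defaults, so reads of their shared stretch may be assigned to either gene.

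The shares of the 3 paralogues in their summed level contain the value CDC25B was chosen for, so they are a description: the share of CDC25A can be lower in KD while its own level overlaps between the groups. Per kilobase of exon, CDC25B made up 67.7% and 65.3% of the summed CDC25 level in WT and 77.9% and 81.3% in KD, with no overlap. The share of CDC25A was 18.4% and 19.5% in WT and 12.8% and 11.6% in KD. That of CDC25C was 13.8% and 15.2% in WT and 9.29% and 7.12% in KD. The summed level itself was 62.2 and 69.0 CPM per kilobase in WT and 89.9 and 97.8 in KD. The log2 fold change of CDC25B exceeded the mean of its paralogues by 0.99 (SE 0.233), a description that includes the value CDC25B was chosen for, and by 0.83 to 1.16 when 1 library was left out.

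**Figure D2:**
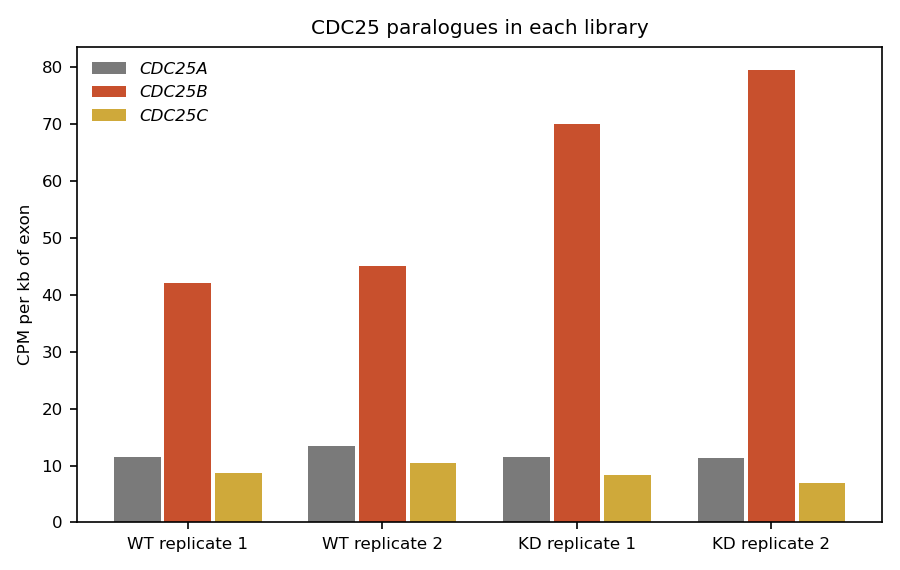
Level per kilobase of exon of CDC25A, CDC25B and CDC25C as 1 bar per gene and RNA-seq library, in CPM per kilobase. CDC25B lies at 42.1 and 45.0 in WT and at 70.0 and 79.6 in KD, while the other 2 phosphatases stay at or under 13.5 in every library.

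Promoter windows of RefSeq (assembly GRCh38.p14, 250 bases before and 50 after a start site) were found for 7 of the 10 members, 14 windows in all; none was matched for WEE1, PKMYT1 and AURKA. Windows of the 3 phosphatases are printed to set CDC25B beside its paralogues, and those of CDK1 and PLK1 as examples of a start without and with an mH2A1.1 region over it. They run 5′ to 3′ along the gene. Capitals mark matches on either strand to the CCAAT box (CCAAT, read from the other strand as ATTGG). They also mark the letters of the CHR, which are TTTGAA and appear from the other strand as TTCAAA. The related letters TTTAAA, which read alike on both strands, are marked too.
CDC25A (chr3:48188368-48188667, minus strand): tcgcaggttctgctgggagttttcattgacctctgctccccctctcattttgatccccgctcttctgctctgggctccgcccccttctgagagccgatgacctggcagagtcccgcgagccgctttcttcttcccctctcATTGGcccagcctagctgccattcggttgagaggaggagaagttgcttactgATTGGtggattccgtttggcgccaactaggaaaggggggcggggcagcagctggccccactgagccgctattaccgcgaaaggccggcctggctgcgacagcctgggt
CDC25B, first window (chr20:3786701-3787000, plus strand): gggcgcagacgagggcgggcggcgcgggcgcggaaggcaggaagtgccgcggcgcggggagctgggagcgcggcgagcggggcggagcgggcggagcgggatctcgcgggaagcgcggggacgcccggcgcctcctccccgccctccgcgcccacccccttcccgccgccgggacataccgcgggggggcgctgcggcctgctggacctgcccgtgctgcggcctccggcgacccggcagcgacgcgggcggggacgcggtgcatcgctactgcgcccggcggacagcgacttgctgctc
CDC25B, inner window (chr20:3796060-3796359, plus strand): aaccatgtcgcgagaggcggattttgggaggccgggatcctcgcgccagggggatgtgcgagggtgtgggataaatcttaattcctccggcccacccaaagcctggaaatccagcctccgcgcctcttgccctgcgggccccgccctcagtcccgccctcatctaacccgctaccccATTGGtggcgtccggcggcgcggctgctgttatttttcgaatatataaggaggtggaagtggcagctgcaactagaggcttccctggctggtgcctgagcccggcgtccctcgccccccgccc
CDC25C (chr5:138331755-138332054, minus strand): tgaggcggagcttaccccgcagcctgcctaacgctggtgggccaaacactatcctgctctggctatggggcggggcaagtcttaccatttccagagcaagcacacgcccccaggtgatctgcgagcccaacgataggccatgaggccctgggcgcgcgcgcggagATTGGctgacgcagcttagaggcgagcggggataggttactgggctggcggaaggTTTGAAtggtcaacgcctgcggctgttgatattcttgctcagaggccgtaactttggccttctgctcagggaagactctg
CDK1 (chr10:60778228-60778527, plus strand): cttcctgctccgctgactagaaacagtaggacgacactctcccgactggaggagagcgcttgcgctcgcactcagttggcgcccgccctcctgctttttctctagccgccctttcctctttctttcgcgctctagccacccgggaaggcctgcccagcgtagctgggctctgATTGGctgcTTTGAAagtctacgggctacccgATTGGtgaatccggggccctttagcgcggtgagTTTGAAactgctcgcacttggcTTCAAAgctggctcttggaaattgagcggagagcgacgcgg
PLK1 (chr16:23678639-23678938, plus strand): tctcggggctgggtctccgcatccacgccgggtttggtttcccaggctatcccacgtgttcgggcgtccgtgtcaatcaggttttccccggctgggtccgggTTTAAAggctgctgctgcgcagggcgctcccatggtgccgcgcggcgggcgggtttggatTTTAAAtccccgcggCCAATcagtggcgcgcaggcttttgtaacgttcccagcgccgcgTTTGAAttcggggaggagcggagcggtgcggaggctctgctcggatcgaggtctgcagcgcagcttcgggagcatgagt

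Each of the 7 genes with a window had a CCAAT match in at least 1 of its windows (10 of the 14 windows), where 34.6% of all 35116 RefSeq windows hold one. CHR letters were present for 4 of the 7 (CDC25C, CDK1, CCNB2 and PLK1; 6 of 14 windows) against 15.2% of all windows, and TTTAAA for 5 of the 7 (5 of 14 windows) against 12.2% of all windows. Some windows of CDC25C and of CDK1 overlap, and the CHR letters of CDC25C are counted in both of its windows that hold them. No match of 1 motif overlapped that of another. In the printed CDC25C window CCAAT starts at -85 and TTTGAA at -30 from the start site, and in that of PLK1 CCAAT starts at -73 and TTTGAA at -29. CCNB2 has the same order, with TTTGAA at -29 and the nearest CCAAT at -54, and CCNB1 has TTTAAA at -30 and CCAAT at -55. Of the 4 CDC25B windows, the first, at 81.3% GC, holds no match, the next holds CCAAT alone at -169, the printed inner one CCAAT alone at -73 and the last TTTAAA alone at 33, so TTTGAA is in none. CDC25A likewise holds CCAAT alone, and the 2 CDC25C windows at its outermost starts, at 72.7% and 74.3% GC, hold no match. These matches describe letters in windows of fixed length and do not locate bound sites.

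WEE1 and PKMYT1 oppose the phosphatases. WEE1 (ENSG00000166483, chromosome 11, 9573670 to 9593457, plus strand), the nuclear kinase, had 152 and 140 CPM in WT and 101 and 79.0 CPM in KD. The KD libraries were at 0.691 and 0.542 of the WT mean, and the groups did not overlap. The log2 fold change was -0.69 (SE 0.196) with an edgeR adjusted p of 0.193, and DESeq2 called it lower (-0.70, adjusted p 0.0755). Without KD replicate 1 the gene was called by edgeR (-0.89, adjusted p 8.9e-09), and without KD replicate 2 it fell short of the fold threshold at -0.53; in such fits the lone KD library is assumed to vary like the WT pair.

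PKMYT1 (ENSG00000127564, chromosome 16, 2968024 to 2980479, minus strand), the membrane-bound kinase, had 45.9 and 51.8 CPM in WT and 43.5 and 54.4 CPM in KD. The KD values bracketed the WT values (log2 fold change -0.01, SE 0.205, edgeR adjusted p 0.981), and the value was -0.16 without KD replicate 2, 0.15 without KD replicate 1 and 0.08 without WT replicate 2. PAQR4, on the opposite strand over part of the gene, had 80 to 316 counts against 115 to 436 for PKMYT1, so the level of PKMYT1 is uncertain. Within a library the level of WEE1 per kilobase was 1.78 and 1.45 times that of PKMYT1 in WT and 1.24 and 0.781 times in KD, so their order was inverted in KD replicate 2. After the GC and length correction given below, the log2 fold changes were -0.43 for WEE1 and -0.46 for PKMYT1. The level of WEE1 relative to CDC25B was 0.390 and 0.335 in WT and 0.155 and 0.107 in KD, a ratio that again includes the value CDC25B was chosen for.

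CDK1 and the B cyclins form the kinase that the other members control. CDK1 (ENSG00000170312, chromosome 10, 60778331 to 60794852, plus strand) had 207 and 168 CPM in WT and 114 and 56.3 CPM in KD. The groups did not overlap, but the KD libraries differed from each other, at 0.608 and 0.301 of the WT mean. The means were 187 ± 27.6 CPM in WT and 85.1 ± 40.7 CPM in KD (SD, n = 2). The log2 fold change was -1.11 (SE 0.324) with an edgeR adjusted p of 0.193, and DESeq2 called it lower (-1.13, adjusted p 0.0194). edgeR called it without KD replicate 1 (-1.75, adjusted p 3.2e-27) and without KD replicate 2 (-0.72, adjusted p 2.7e-08), again with the spread taken from the WT pair.

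The cyclins differed less between the groups. CCNB1 (ENSG00000134057, chromosome 5, 69167135 to 69178245, plus strand), the main mitotic cyclin, had 269 and 301 CPM in WT and 259 and 237 CPM in KD. The groups were separate by a narrow margin (log2 fold change -0.20, SE 0.178, edgeR adjusted p 0.484). CCNB2 (ENSG00000157456, chromosome 15, 59105126 to 59125045, plus strand), a B cyclin associated with the Golgi, had 73.5 and 73.6 CPM in WT and 68.9 and 69.6 CPM in KD (log2 fold change -0.09, SE 0.173, edgeR adjusted p 0.758). Per kilobase of exon, CCNB1 was 2.09 and 2.88 times the level of CDK1 in WT and 3.65 and 6.75 times in KD. These ratios are not corrected for GC content. After the GC and length correction given below, the log2 fold changes were -0.46 for CDK1 and -0.02 for CCNB1.

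The upstream mitotic kinases differed in sign. AURKA (ENSG00000087586, chromosome 20, 56369389 to 56392337, minus strand), the centrosomal kinase that activates PLK1, had 194 and 211 CPM in WT and 169 and 141 CPM in KD. KD was below WT in both libraries and the difference did not pass (log2 fold change -0.38, SE 0.186, edgeR adjusted p 0.246). PLK1 (ENSG00000166851, chromosome 16, 23677656 to 23690367, plus strand) had 110 and 122 CPM in WT and 117 and 184 CPM in KD, so KD replicate 1 lay inside the WT range and KD replicate 2 above it. The log2 fold change of PLK1 was 0.37 (SE 0.246, edgeR adjusted p 0.362), was 0.02 without KD replicate 2, reached 0.66 without KD replicate 1 (edgeR adjusted p 6.7e-07) and was -0.02 after the GC and length correction given below.

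Ordered by level per kilobase in WT, the members ran from CCNB1 (110 and 124 CPM per kilobase) through AURKA (66.4 and 72.0), CDK1 (52.9 and 43.0), CDC25B (42.1 and 45.0), CCNB2 (26.7 in both), PLK1 (23.1 and 25.6), WEE1 (16.4 and 15.1) and CDC25A (11.5 and 13.5) to PKMYT1 (9.23 and 10.4) and CDC25C (8.61 and 10.5). Neighbours whose WT values overlapped were CDK1 with CDC25B and PKMYT1 with CDC25C. In KD, CDC25B stood at 70.0 and 79.6 CPM per kilobase, above AURKA at 57.6 and 48.2, and CDK1 at 29.1 and 14.4. These levels use the summed exon length of a gene, since gene counts do not tell which transcript was in use.

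The differences went with the base composition of the genes, and the part of base composition in them was not tested beyond the offsets given here. Over the 10943 genes tested, the median log2 fold change was -0.47 in the quintile of lowest exonic GC content and 0.47 in the quintile of highest. KD replicate 2 alone ran from -0.79 to 0.74 and KD replicate 1 alone from -0.25 to 0.19. Over the 10 members, the log2 fold change and GC content had a Pearson correlation of 0.820 and a Spearman correlation of 0.830, and over all genes 0.628 and 0.671; genes of 1 library share its depth and composition, and CDC25B was chosen for its value.

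**Figure D3:**
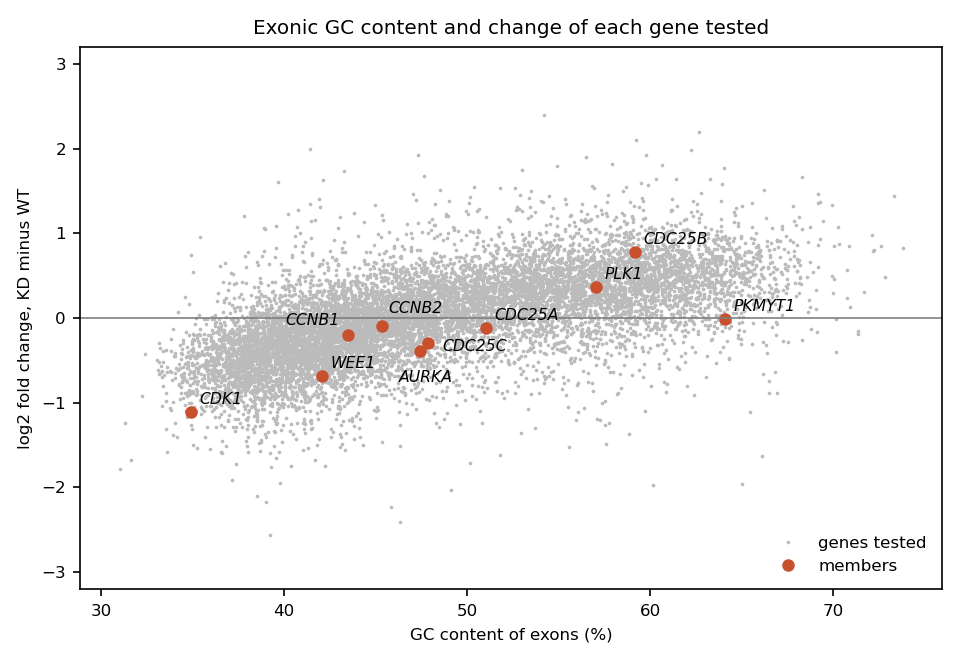
Log2 fold change of KD against WT by GC content of exons in percent, with each of the 10943 tested genes as a grey point and the 10 members as labelled points. CDK1 lies at 34.9% GC and -1.11, CDC25B at 59.2% GC and 0.78, and PKMYT1 at 64.1% GC and -0.01, below most genes of like composition.

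CDK1 had the lowest GC content of the members at 34.9%, below nearly all tested genes (percentile 1.07), and CDC25B was at percentile 86.4 with 59.2%. Set against the median of its own GC quintile, CDC25B was higher by 0.31 on the log2 scale, CDK1 was at -0.65, PKMYT1 at -0.48, WEE1 at -0.47, CDC25A at -0.41, AURKA at -0.41 and CDC25C at -0.32. PLK1, CCNB2 and CCNB1 were within 0.11 of the median of their quintile.

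With offsets for GC content and gene length in the fit, which called 589 genes or 5.38% of those tested, the log2 fold change of CDC25B was 0.37 (SE 0.125), a fold of 1.30. WEE1 was then at -0.43 (edgeR adjusted p 0.0536), CDK1 at -0.46 (0.0805), PKMYT1 at -0.46 (0.0848) and AURKA at -0.41 (0.0849). These 4 were under the p threshold and short of the fold threshold, so 0 of the 9 members were called. CDC25A was at -0.28 and CDC25C at -0.32 (adjusted p 0.214 and 0.238), and PLK1, CCNB1 and CCNB2 were each at -0.02. CDC25B, which was chosen for its value, was the only member above 0 in this fit. PLK1, CCNB1 and CCNB2 had SEs of 0.108, 0.112 and 0.107, so their signs were not resolved. The excess of CDC25B over the mean of its paralogues was 0.67, a description that includes the value CDC25B was chosen for. After the offsets, the correlation of the members' values with GC content was 0.335 (Pearson) and 0.273 (Spearman).

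**Figure D4:**
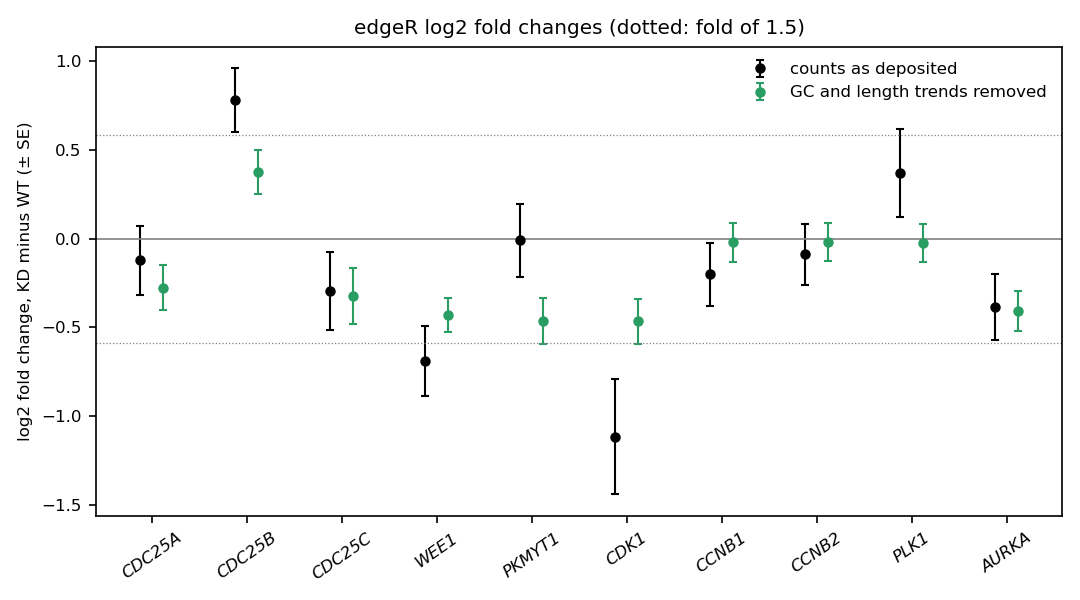
Log2 fold change of KD against WT for the 10 members, with the standard error as bars, from the fit without offsets and from the fit with offsets for GC content and gene length; dotted lines mark a fold of 1.5. With offsets CDC25B moves from 0.78 to 0.37, CDK1 from -1.11 to -0.46 and PKMYT1 from -0.01 to -0.46.

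The other genes of the G2/M network were read from lists made by role, and edgeR called 0 genes of any list. Their counts without overlap are to be read against 32.5% higher and 32.4% lower in KD over all genes tested. Their DESeq2 calls are to be read against 5.57% higher and 5.78% lower of the 7739 genes with a DESeq2 adjusted p. An adjusted p was given by DESeq2 to 7 of the 8 tested transcription genes and 15 of the 16 tested S phase genes. In the other lists it was given to every gene tested. Listed genes without a test lay beyond chromosome 20, where KD replicate 2 had no usable counts (such as CHEK2), or failed the filter (LIN37). For CDK7 and YWHAE no matching identifier was found in the count tables. Among CDK partners and activators (9 of 11 tested, median log2 fold change -0.30, -0.14 without KD replicate 2 and 0.07 with offsets), 3 were higher and 5 lower in KD without overlap (32.5% and 32.4% over all genes), and DESeq2 called 1, CCNA2. CCNA2, the cyclin A of S and G2 phase, had 241 and 221 CPM in WT and 132 and 93.7 CPM in KD (log2 fold change -1.02, edgeR adjusted p 0.175, DESeq2 adjusted p 0.00628), and it was called with offsets at -0.76 (edgeR adjusted p 0.0211). CKS1B, a CDK subunit, was at 0.51 (0.15 without KD replicate 2), and BORA, the AURKA cofactor for PLK1, was at -0.65 (-0.29 without it), and neither passed.

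The phosphatases that reverse CDK1 substrates and their inhibitors gave 3 genes higher and 5 lower without overlap, beside 32.5% and 32.4% over all genes (12 tested, median -0.12, 0.0024 without KD replicate 2 and 0.02 with offsets). PPP1CC, a catalytic subunit of PP1, had 347 and 331 CPM in WT and 167 and 96.6 CPM in KD (log2 fold change -1.35, edgeR adjusted p 0.175). DESeq2 called it lower (adjusted p 5.5e-04), as it did ARPP19, an inhibitor of PP2A (-1.01), and PPP1CB, another PP1 catalytic subunit (-0.74). DESeq2 called PPP2R1A, the PP2A scaffold, higher (0.68). Without KD replicate 2 the edgeR values of ARPP19, PPP1CB and PPP2R1A were -0.64, -0.45 and 0.36. With offsets PPP1CC alone of these was called, at -1.03.

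Transcription factors of G2/M genes (8 of 9 tested) had a median of -0.32, and -0.39 with offsets, with 1 gene higher and 5 lower without overlap (32.5% and 32.4% over all genes). LIN9, a subunit of the DREAM and MMB complexes that read CHR elements, was called lower by DESeq2 (-0.96) and with offsets (-0.76). LIN54, the subunit that contacts the CHR, and the NF-Y subunits NFYB and NFYA, which bind CCAAT, were at -0.71 (-0.46 without KD replicate 2), -0.66 and -0.49 and did not pass either test. FOXM1, an activator of late cell cycle genes, had 225 and 243 CPM in WT and 200.4 and 222 CPM in KD (log2 fold change -0.15, edgeR adjusted p 0.601). With offsets FOXM1 was at -0.40 (edgeR adjusted p 0.0724), under the p threshold and short of the fold threshold.

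Checkpoint and 14-3-3 genes (15 of 18 tested, median -0.17, -0.01 without KD replicate 2 and 0.04 with offsets) had 4 genes higher and 5 lower without overlap, beside 32.5% and 32.4% over all genes, and held the highest log2 fold change of the genes named from the lists. SFN, the 14-3-3 sigma protein that holds CDK1 and cyclin B1 in the cytoplasm, had 74.1 and 78.4 CPM in WT and 135 and 293 CPM in KD. Both KD libraries were above WT and far from each other (log2 fold change 1.47, edgeR adjusted p 0.193), and it was 0.83 without KD replicate 2. DESeq2 (adjusted p 0.00142) and edgeR with offsets (0.82, adjusted p 0.0294) called SFN higher. CHEK1, the kinase that restrains CDC25 proteins after damage or stalled replication, had 134 and 135 CPM in WT and 78.7 and 44.5 CPM in KD, and the same 2 fits called it lower (-1.12 by DESeq2 and -0.82 with offsets). CDKN1A, the p21 inhibitor, overlapped between groups at 81.2 and 85.3 CPM in WT and 54.3 and 96.6 CPM in KD (log2 fold change -0.17, edgeR adjusted p 0.714), was -0.61 without KD replicate 2 and was called lower with offsets (-0.61, adjusted p 0.0536). MAPKAPK2, a checkpoint kinase that can phosphorylate CDC25B, and CLSPN, the CHEK1 adaptor, were called by DESeq2, at 0.67 and -0.69, and not with offsets. MAPKAPK2 was at 0.43 by edgeR without KD replicate 2.

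Genes of protein turnover by SCF and the APC/C (20 tested, median -0.04, -0.01 without KD replicate 2 and 0.09 with offsets) had 4 higher and 8 lower without overlap, beside 32.5% and 32.4% over all genes. DESeq2 called ANAPC11 higher (1.01) and CDC27 lower (-0.81), both subunits of the APC/C, and neither was called with offsets. ANAPC11 had 68.5 and 147 CPM in KD, and its edgeR value was 1.02 with both KD libraries and 0.39 without KD replicate 2. Of genes used to mark mitosis, 19 of 26 were lower and 1 higher without overlap (32.4% and 32.5% over all genes), with a median of -0.51 and of -0.34 without KD replicate 2, beside a median of 0.01 over all genes tested. DESeq2 called 9 of the 26 lower and 0 higher, beside 5.78% and 5.57% of the 7739 genes with a DESeq2 adjusted p. Among the 9 were NUF2 of the kinetochore (-1.08), HMMR of the spindle (-0.94), CENPE, a kinetochore motor (-0.92) and TTK, the checkpoint kinase (-0.92). Without KD replicate 2 the edgeR values of CENPE and TTK were -0.51 and -0.56. The summed level of the mitosis genes was 9533 and 9509 CPM in WT and 7285 and 5757 CPM in KD. With offsets their median was -0.29, and 2 were called lower and 0 higher, beside 3.18% and 2.2% of all genes tested. These 2 were not among the 9 that DESeq2 called.

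Of genes used to mark S phase, 16 of 20 were tested, 10 were lower and 0 higher without overlap (32.4% and 32.5% over all genes), and the median was -0.39 (-0.29 with offsets). Their summed level was 2012 and 2162 CPM in WT and 1690 and 1930 CPM in KD. RRM2, the small subunit of ribonucleotide reductase, was called lower by DESeq2 (-0.71) and with offsets (-0.78). CCNE2, a cyclin E, was called lower by DESeq2 (-0.98) and not with offsets, and was at -0.59 by edgeR without KD replicate 2. The 9 members other than CDC25B summed to 1128 and 1157 CPM in WT and 947 and 891 CPM in KD. In bulk RNA, fewer cells in a phase and less RNA of a gene per cell cannot be told apart, and the part of cell cycle position in the members' values was not tested.

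The ChIP-seq addressed where mH2A1.1 and total mH2A1 lie in WT cells, as enriched regions on a grid of 3000 bp with 1 library each and so without replicate error. There were 30687 mH2A1.1 regions, of which 11849 overlapped one of the 24222 mH2A1 regions and are called common. Within 500 bp of the gene start, 3 of the 10 members had an mH2A1.1 region (CDC25A, CCNB1 and PLK1), against 46.9% of expressed genes. No member had a common region or an mH2A1 region there, against 26.2% and 18.4% of expressed genes. Within 1000 bp, WEE1 was added (4 members, 49.1% of expressed genes). Counting the start of any transcript, 6 members had an mH2A1.1 region (57.7% of expressed genes), the other 3 being CDC25C, WEE1 and PKMYT1.

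CDC25B had no region at its first start. The nearest mH2A1.1 region was a common one of 48000 bp that ended 3772 bp upstream (chr20:3735001-3783000), and a second common region began downstream of the gene (chr20:3807001-3828000). Regions of mH2A1.1 lay somewhere inside 7 of the 10 genes, against 72.3% of expressed genes, common regions inside 2 (CDC25A and PKMYT1, 37.9%) and an mH2A1 region inside PLK1 alone (42.3%). Inside CDC25B lay 1 region of 3000 bp that was not common (chr20:3792001-3795000), which covered 15.5% of the gene and ended 1060 bp before the inner promoter window printed above. Within 50 kb on each side of the start, mH2A1.1 regions covered 70.2% around CDC25B, the highest of the 10 members, where the median expressed gene had 18.0% and the upper quartile was 42.0%. For mH2A1 the value at CDC25B was 27.0%, equal to the upper quartile of 27.0%, beside a median of 9.00%.

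Among the other phosphatases, CDC25A had its start and the printed window inside an mH2A1.1 region of 18000 bp (chr3:48186001-48204000) and 64.4% of its surroundings covered. CDC25C had 9.00% covered, with its nearest region 8355 bp into the gene from its outermost start and 1755 bp from the printed window. The kinases WEE1 and PKMYT1 had common regions that ended 670 bp and began 4522 bp upstream of their starts and coverages of 46.0% and 66.0%. CCNB1 (38.9% covered) and PLK1 (6.0%) had regions over their starts of 15000 bp and 3000 bp that were not common, and that of PLK1 contains the printed window. AURKA had 48.3% covered but its nearest region was 25337 bp away, and CDK1 and CCNB2 had 0% covered, with the nearest region 73331 and 63875 bp away.

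**Figure D5:**
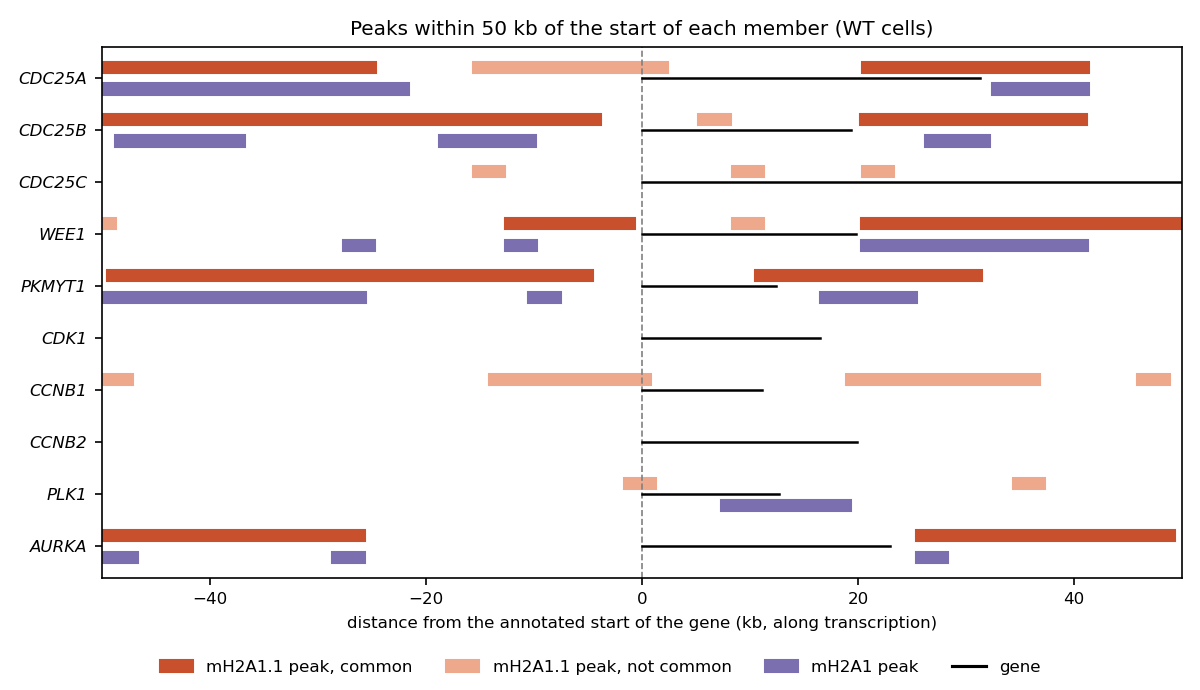
Enriched regions of mH2A1.1 and of mH2A1 around the start of each member, by distance from the start in kb along the direction of the gene, clipped at 50 kb on each side, with common mH2A1.1 regions in the darker red and genes as black lines. CDC25B shows 2 wide regions on either side of a 3000 bp region inside the gene, CDC25A, CCNB1 and PLK1 have a region over the start, and CDK1 and CCNB2 show none.

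Set side by side, CDK1 and CCNB2 shared the absence of regions within 50 kb and differed in log2 fold change (-1.11 and -0.09), and CDC25B, PKMYT1 and CDC25A shared coverages of 64.4% or more and had log2 fold changes of 0.78, -0.01 and -0.12. No test was made of a relation between regions and fold changes over 10 genes.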

How the data were processed

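RNA-seq counts per gene were deposited by the authors, who mapped reads to GRCh38 with STAR 2.5.1, filtered with SAMtools, removed duplicates and counted with htseq-count at default settings on an annotation not given in the sources used here. Peak positions deposited by the authors (hg38, no heights) were called per library against the input with normR. The promoter capture Hi-C samples were not analysed here. Of 23167 identifiers, 23061 matched GENCODE 44; unmatched identifiers held 0.120 to 0.176% of counts. KD against WT was tested with edgeR 4.0.16 (filterByExpr, TMM, quasi-likelihood, Benjamini-Hochberg) on genes of chromosomes 1 to 20, and with DESeq2 1.42.0 as an alternative (R 4.3.3). CPM use TMM-scaled library sizes, and SE is that of the log2 fold change. GC and length offsets were lowess fits (span 0.3) per library. The script was tested on simulated data. A region counted from 1 bp of overlap. The members and gene lists were chosen with earlier results of these data known. Genes named are the members, up to 4 genes a list by absolute log2 fold change among those called or without overlap, FOXM1, CDKN1A and CCNA2, and the 5 genes nearest to CDC25B among those with a mean CPM of at least 50. A gene that this rule names is not reported here. Alternatives were size factors, filter, DESeq2, all chromosomes, offsets, a replicate block and leaving out each library.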

Additional observations from a re-analysis of the deposited data

How the results depend on the processing

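Over all genes, edgeR called 0, also on all chromosomes or with relative log expression size factors. It called 2143 (14.3% of 15019) without the filter on low counts and 2200 (20.1%) with a replicate block. With GC and length offsets it called 589 (5.38%), and 865 (7.9%) with both offsets and block. DESeq2 called 878 (11.3% of 7739) and, on all chromosomes, 945 (10.2% of 9262), both shares of genes with a DESeq2 adjusted p. Leaving out 1 library gave 2 to 4735 calls, 4735 without KD replicate 1 and 908 without KD replicate 2. Of the 9 members other than CDC25B, 2 were called without the filter, with the block and by DESeq2 on either set of chromosomes, 0 with offsets, and 0 to 3 with 1 library left out. For the network and phase lists the calls were 36 without the filter, 36 with the block, 23 and 21 by DESeq2, 11 with offsets, 15 with offsets and block, and 0 to 58 with 1 library left out. The excess of CDC25B over its paralogues was 0.99, and 0.67 and 0.66 with offsets without and with the block. The count of 3 members with an mH2A1.1 region at the start was 6 for any transcript start, 4 within 1000 bp, and 0 for common or for mH2A1 regions. Signs turned for PKMYT1 (0.08 without WT replicate 2, and -0.16 to 0.15 with 1 library left out) and PLK1 (-0.025 with offsets, -0.024 with offsets and block). The causes were not tested. Replicates of equal number deviated from their group means with a correlation of 0.252 over the genes tested. With 2 libraries a group, the 2 pairs give the same value. The labels give such pairs nothing in common beyond the number, and a shared batch was not tested. KD replicate 2 was the shallowest library, and the smallest edgeR adjusted p was 0.175.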

Other observations

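The 5 genes whose centred log2 CPM over the 4 RNA-seq libraries lay nearest to that of CDC25B, among 4695 other genes with a mean of at least 50 CPM, were CTSA (root mean square difference 0.0305), POR (0.0323), PNMA1 (0.0366), ABHD4 (0.0421) and ITGA5 (0.0486). CTSA encodes the lysosomal protective protein cathepsin A, POR the cytochrome P450 reductase and ITGA5 the alpha subunit of a fibronectin receptor. CTSA, the nearest, had 143 and 149 CPM in WT and 234 and 279 CPM in KD. The exonic GC content of the 5 genes ran from 51.7% (ABHD4) to 60.8% (POR), beside 59.2% for CDC25B. The 4 libraries are few, and likeness over them is a description.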
